A study of Mus musculus with 4 samples.

Results

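The immune checkpoint genes described here are 9 gene symbols out of the 26214 in the count files, chosen by name: Cd274, Pdcd1lg2, Pdcd1, Ctla4, Lag3, Havcr2, Tigit, Ido1 and Cd276. All 9 were matched, and all 9 had enough counts to be tested. The samples were colon tumours of mice given azoxymethane, a carcinogen, with dextran sulfate sodium, which injures the colonic lining. Polyadenylated RNA was sequenced from 4 libraries, of which the labels call 2 Gsk3b (IEC+/+) and the other 2 Gsk3b (IEC-/-), where IEC stands for intestinal epithelial cells and both groups had received the same tumour treatment. Of 16637 genes tested, 147 differed between the groups, 0.884% of them. The promoter used for the deletion, the exons removed, the age of the mice and whether each library was a separate mouse are not given in the sources used here. Hence p-values cover no more than the spread between these samples, which may be technical.

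Checkpoint receptors are switches on T cells and natural killer cells that dampen activation when they meet their ligands on tumour cells or on antigen-presenting cells. PD-1 (Pdcd1) binds PD-L1 (Cd274) and PD-L2 (Pdcd1lg2), and CTLA-4 (Ctla4) takes CD80 and CD86 away from the activating receptor CD28. LAG-3 (Lag3), TIM-3 (Havcr2) and TIGIT (Tigit) are further inhibitory receptors, IDO1 (Ido1) is an enzyme that depletes tryptophan, and B7-H3 (Cd276) is a B7 family protein found on many tumour and stromal cells. Interferon-gamma, a cytokine of activated T cells and natural killer cells, is a known inducer of Cd274 and Ido1. GSK3B, a kinase, is known to mark PD-L1 protein for degradation in some cells, a step that RNA counts do not measure.

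Gsk3b itself was counted at 170 and 157 CPM for IEC+/+, then 152 and 149 CPM for IEC-/-, CPM being the count scaled to a common library size. The count of the whole gene in mixed tissue does not check the labels, so the groups are called by their labels throughout. Total counts were 25472503 to 27218515 per library, and after TMM scaling of the library sizes 1 CPM stood for 25.9 to 27.8 counts. The epithelial marker Epcam was present at 1045 to 1444 CPM, the leukocyte marker Ptprc at 40.1 to 54.0 CPM, the myeloid marker Itgam at 24.2 to 38.7 CPM and the T cell marker Cd3e at 1.02 to 2.84 CPM. In bulk tissue fewer cells of a type and less RNA per cell cannot be told apart.

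None of the 9 genes passed the test across all genes (edgeR quasi-likelihood test, Benjamini-Hochberg adjusted p from 0.232 to 0.924), beside 0.884% of all genes. Over all genes, 0.12% were called higher in IEC-/- and 0.763% lower. The Wald test of DESeq2, edgeR's exact test and limma-voom also called 0 of the 9, where they called 8.25%, 5.22% and 0.469% of all genes with an adjusted p. Before adjustment 1 gene, Cd276, had a p under 0.05 by each of these 4 tests, beside 16.6% of all genes by the quasi-likelihood test (7.5% higher and 9.12% lower). Cd276 lost this without IEC+/+ replicate 1 and without IEC-/- replicate 2. Means were higher in IEC-/- for 6 genes and lower for 3, where 51.5% of all genes were higher, with a median log2 fold change of 0.48 against 0.01 over all genes tested. That median was -0.25 without IEC-/- replicate 2 and 0.18 by limma-voom. Groups did not overlap for 4 genes, with 3 higher in IEC-/- (Cd276, Lag3 and Pdcd1lg2) and 1 lower (Pdcd1), where 48% of all genes tested did not overlap, 24% higher and 24.1% lower. A count of 4 of 9 is close to this background. The IEC-/- libraries lay at least 2-fold apart for 3 of the 9 genes (Cd274, Ido1 and Tigit) and for 10.4% of all genes. For Tigit this rested on only 14 and 29 counts. The IEC+/+ libraries lay that far apart for 0 of the 9 and for 8.04% of all genes.

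**Figure D1:**
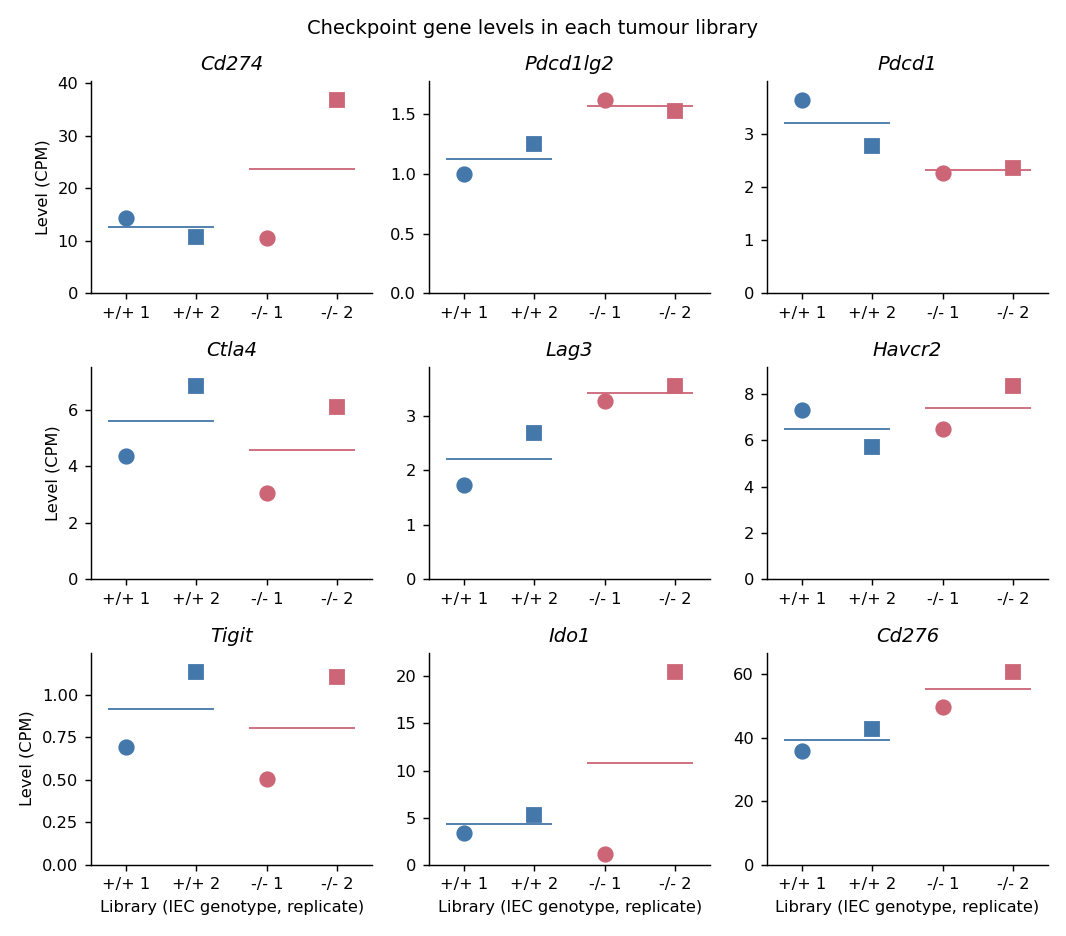
Level of each checkpoint gene in CPM (vertical axes start at 0 and differ between panels) in the 2 IEC+/+ libraries (blue) and the 2 IEC-/- libraries (red), with circles for replicate 1, squares for replicate 2 and a line at each group mean. Cd274 and Ido1 stand high in IEC-/- replicate 2 only, at 36.7 and 20.5 CPM, while Cd276, Lag3 and Pdcd1lg2 are higher in both IEC-/- libraries than in either IEC+/+ library.

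Compared per transcript length, Cd276 was the most abundant of the genes and Pdcd1lg2 the least. In RPKM, the CPM per kilobase of annotated exon, Cd276 had a mean of 12.9 over the 4 libraries, Cd274 4.99, Ido1 4.15, Havcr2 2.56, Ctla4 2.19, Pdcd1 1.43, Lag3 1.33, Tigit 0.936 and Pdcd1lg2 0.688. The ranges of every pair of neighbours in this order overlapped. Within a library Cd276 was above Cd274 in 4 of 4 libraries and Lag3 above Tigit in 4 of 4, whereas Ido1 was above Havcr2 in only 2 and Pdcd1 above Lag3 in only 2. In CPM, the 9 genes lay between the 7.52 and 66.6 percentiles of mean level of all genes tested, so most were thinly counted, with Tigit at 14 to 30 counts and Pdcd1lg2 at 26 to 45.

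The ligands of PD-1 are neighbours on chromosome 19 (GRCm38), Cd274 at chr19:29367455-29388095 and Pdcd1lg2 at chr19:29410919-29471161, both on the plus strand. Their levels differed in pattern, so the bases before each start are shown for comparison, from RefSeq on GRCm38.p6 (plus strand, chr19:29367188-29367437 and chr19:29410669-29410918). Capitals mark the letters of the core of interferon regulatory factor sites, AANNGAAA, searched on both strands like all motifs here; in each it reads on the minus strand.
Cd274: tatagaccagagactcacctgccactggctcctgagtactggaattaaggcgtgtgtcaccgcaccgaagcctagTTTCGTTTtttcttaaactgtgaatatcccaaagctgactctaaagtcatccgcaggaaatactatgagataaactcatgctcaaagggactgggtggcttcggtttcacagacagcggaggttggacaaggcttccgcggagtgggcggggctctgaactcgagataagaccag
Pdcd1lg2: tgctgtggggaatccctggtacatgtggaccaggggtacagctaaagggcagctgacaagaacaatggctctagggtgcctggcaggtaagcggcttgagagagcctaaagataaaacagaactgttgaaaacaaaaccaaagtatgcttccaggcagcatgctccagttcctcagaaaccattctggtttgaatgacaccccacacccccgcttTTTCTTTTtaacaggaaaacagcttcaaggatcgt
The match begins 175 bases before the RefSeq start of Cd274 and 35 before that of Pdcd1lg2. For Cd274 the RefSeq start, just after the bases printed, lies upstream of the gene start given above. Of the 9 genes, 7 had an entry, and in the 250 bases before the start 3 of these held this core, Pdcd1 being the third, as did 21.3% of all promoters. The longer interferon-stimulated response element (GAAA, any 2 bases, GAAA), which contains the core, was found in 0 of the 7 and in 2.98% of all promoters. These are matches of letters in a short window, and both ligands hold the core.

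Cd274, which encodes PD-L1, was high in a single library. It had 14.4 and 10.7 CPM in IEC+/+ replicates 1 and 2, and 10.5 and 36.7 CPM in IEC-/- replicates 1 and 2. IEC-/- replicate 2 was thus 2.55-fold above the next highest library, while IEC-/- replicate 1 was the lowest of all, and the groups overlapped. The means of the groups were 12.5 ± 2.63 (IEC+/+) and 23.6 ± 18.5 CPM (SD, n = 2 each). The log2 fold change was 0.91 (SE 0.58, adjusted p = 0.498 by edgeR), and its 95% interval, as a ratio of IEC-/- over IEC+/+, ran from 0.696 to 5.10. Without IEC-/- replicate 2 the log2 fold change was -0.25 (adjusted p = 0.755). Without IEC-/- replicate 1 it was 1.54 and passed (adjusted p = 0.0317, the lone IEC-/- library being assumed to vary like the others). In GENCODE an antisense transcript shares 511 exon bases with Cd274, and without stated strand the reads of such a pair cannot be told apart.

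Pdcd1lg2, which encodes PD-L2 and in many tissues is made mainly by dendritic cells and macrophages, did not share that pattern. It had 1.00 and 1.25 CPM for IEC+/+, then 1.62 and 1.52 CPM for IEC-/-. Both IEC-/- libraries lay above both IEC+/+ libraries, but at 26 to 45 counts each. The log2 fold change of 0.48 (SE 0.45, adjusted p = 0.662) had a ratio interval of 0.639 to 3.04. The summed level of the PD-1 ligands per summed level of 8 pan-leukocyte genes was 0.0594 and 0.0479 in IEC+/+ and 0.0376 and 0.108 in IEC-/-. The mean log2 difference was 0.25 (exact two-sided permutation p = 1.00, the smallest possible with 2 against 2 being 0.333). It was -0.51 without IEC-/- replicate 2.

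Ido1, which encodes the enzyme that starts tryptophan breakdown along the kynurenine path, varied most between libraries. It is on chromosome 8 (24584136 to 24597009). It had 3.36 and 5.34 CPM for IEC+/+, then 1.15 and 20.5 CPM for IEC-/-, from 32 counts in IEC-/- replicate 1 to 537 in replicate 2. The IEC-/- libraries were therefore the lowest and the highest of the 4 and differed 17.8-fold from each other, against 1.59-fold between the IEC+/+ libraries. Of all genes tested, 3.22% were at least 3-fold and 0.757% at least 10-fold higher in IEC-/- replicate 2 than in replicate 1. The log2 fold change was 1.31 (SE 1.15, adjusted p = 0.636), with a ratio interval from 0.340 to 18.1. By limma-voom on the same 4 libraries it was 0.16 (adjusted p = 0.974). By edgeR it was 2.22 without IEC-/- replicate 1 (adjusted p = 0.0294) and -1.92 without IEC-/- replicate 2 (adjusted p = 0.148). The spread between the IEC-/- libraries was larger than the difference between the group means.

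**Figure D2:**
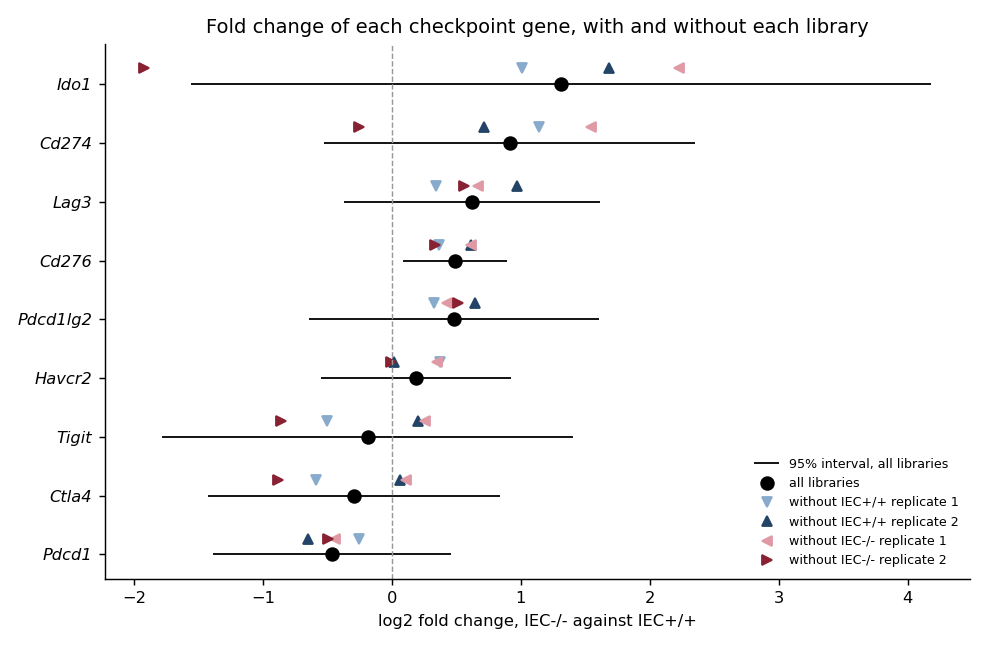
Log2 fold change of each checkpoint gene in IEC-/- against IEC+/+ (black points, with 95% intervals from the edgeR fit) and the values after each library was left out (coloured triangles). The Ido1 value runs from -1.92 to 2.22 and that of Cd274 from -0.25 to 1.54 depending on which IEC-/- library is left out, whereas Cd276 stays between 0.33 and 0.62 in these fits.

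The receptors of T cells showed no shared direction. Pdcd1 (chromosome 1, 94038305 to 94052553), the receptor PD-1, had 3.63 and 2.76 CPM for IEC+/+, then 2.27 and 2.36 CPM for IEC-/-. Both IEC-/- libraries were below both IEC+/+ libraries, and the log2 fold change was -0.46 (SE 0.37, adjusted p = 0.6). Ctla4 (chromosome 1, 60887000 to 60915832), the receptor that competes with CD28, had 4.36 and 6.85 CPM for IEC+/+, then 3.06 and 6.10 CPM for IEC-/-. Its groups overlapped, with replicate 2 the higher library in both genotypes (log2 fold change -0.29, SE 0.45, adjusted p = 0.816). Tigit (chromosome 16, 43648867 to 43664146), a receptor for nectin family ligands, had the same order of libraries at a lower level, with 0.695 and 1.14 CPM for IEC+/+, then 0.504 and 1.11 CPM for IEC-/- (log2 fold change -0.19, SE 0.64, adjusted p = 0.924). For both Ctla4 and Tigit the sign turned when IEC+/+ replicate 2 or IEC-/- replicate 1 was left out, to 0.07 and 0.11 for Ctla4 and to 0.21 and 0.26 for Tigit.

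Lag3 and Havcr2 had higher means in IEC-/-. Lag3 (chromosome 6, 124904361 to 124911705), a CD4-related receptor for MHC class II, had 1.74 and 2.69 CPM for IEC+/+, then 3.27 and 3.55 CPM for IEC-/-. The IEC-/- libraries lay close together above both others, and the log2 fold change was 0.62 (SE 0.40, adjusted p = 0.504, ratio interval 0.774 to 3.06). Havcr2 (chromosome 11, 46454935 to 46481255), which encodes TIM-3 and is also made by macrophages and dendritic cells, had 7.29 and 5.71 CPM for IEC+/+, then 6.47 and 8.35 CPM for IEC-/-. Its groups overlapped, and the log2 fold change of 0.19 (SE 0.29, adjusted p = 0.819) was -0.01 without IEC-/- replicate 2.

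T cell marker genes had higher means in IEC-/- for 12 of 13 tested, so the receptors were also set against them. Of these 13 genes 0 were called by edgeR's quasi-likelihood test, DESeq2, edgeR's exact test or limma-voom (before adjustment 3, 4, 4 and 4 higher), and their median log2 fold change was 0.53. Summed over the whole list of 15 T cell genes, the level was 105 and 85.6 CPM for IEC+/+, then 137 and 136 CPM for IEC-/-. The summed CPM of Pdcd1, Ctla4, Lag3, Havcr2 and Tigit per summed CPM of Cd3d, Cd3e, Cd3g and Cd247, the CD3 complex of the T cell receptor, was 0.793 and 0.955 in IEC+/+ and 0.548 and 0.750 in IEC-/-. Both IEC-/- ratios were below both IEC+/+ ratios, a mean log2 difference of -0.44 (exact two-sided permutation p = 0.333, the smallest that 2 against 2 allows). Most of this denominator was Cd247, at 16.6 and 16.7 CPM for IEC+/+, then 21.9 and 21.0 CPM for IEC-/-. With Cd3d, Cd3e and Cd3g only, an alternative chosen after seeing the data, the ratios were 3.10 and 5.75 in IEC+/+ and 2.41 and 2.83 in IEC-/-. With Cd3e alone the groups overlapped, at 7.78 and 18.7 in IEC+/+ against 5.48 and 13.7 in IEC-/- (exact permutation p = 0.667).

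**Figure D3:**
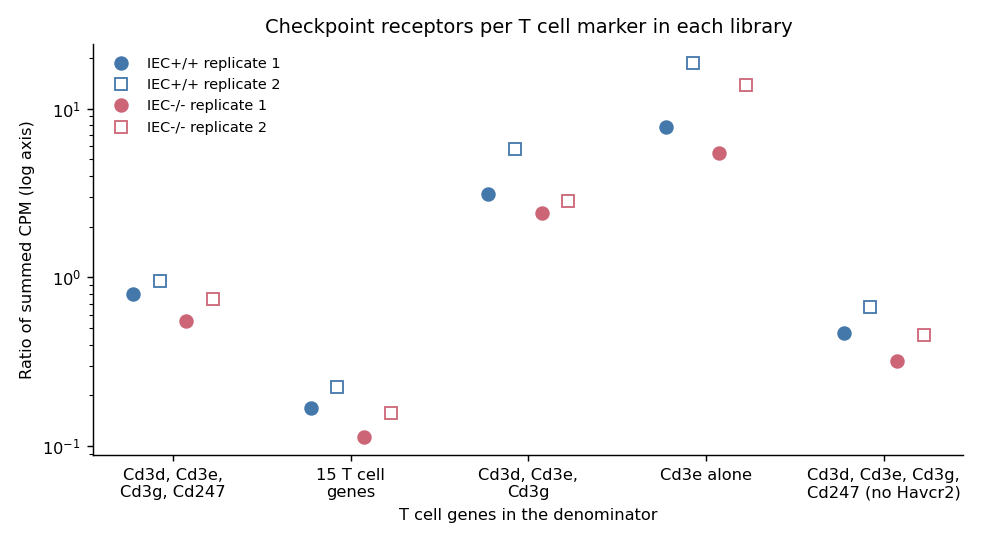
Summed CPM of the 5 checkpoint receptors divided by the summed CPM of T cell genes in each library (log axis), for 5 choices of genes (the last leaves out Havcr2), with blue for IEC+/+, red for IEC-/-, filled circles for replicate 1 and open squares for replicate 2. The IEC-/- ratios lie below the IEC+/+ ratios except with Cd3e alone, where 13.7 in IEC-/- replicate 2 exceeds 7.78 in IEC+/+ replicate 1.

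Cd276 (chromosome 9, 58524298 to 58555437), which encodes B7-H3, had the smallest p of the 9 genes. It had 36.0 and 42.8 CPM for IEC+/+, then 49.7 and 60.8 CPM for IEC-/-, so the groups did not overlap. The means were 39.4 ± 4.80 for IEC+/+ and 55.3 ± 7.85 CPM for IEC-/- (SD, n = 2 each). The log2 fold change was 0.49 (SE 0.16, edgeR adjusted p = 0.232), with a ratio interval of 1.06 to 1.85. The adjusted p over the alternatives lay between 0.13 and 0.73. GENCODE places a transcript on the opposite strand that shares 416 exon bases with Cd276, and without stated strand these reads cannot be told apart. At 932 to 1595 counts it was the best counted of the genes.

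The library with the highest Cd274 and Ido1 levels, IEC-/- replicate 2, also had the highest levels of most interferon-gamma axis genes. Cxcl9, a chemokine gene induced by interferon-gamma, had 1.62 and 4.96 CPM for IEC+/+, then 2.66 and 88.5 CPM for IEC-/-, and Gbp2, an interferon-induced GTPase gene, 22.0 and 26.6 against 12.1 and 160 CPM. Ifng itself was counted 0 times in 3 libraries and 19 times in IEC-/- replicate 2, where 0 counts allow up to 3. Of 18 axis genes tested, 13 were highest in that library, beside 27.7% of all genes tested. The median log2 ratio of replicate 2 to replicate 1 in IEC-/- was 1.82 for these genes and 0.00 for all genes, and in IEC+/+ it was 0.18 and -0.01. The receptor and kinase genes Ifngr1, Ifngr2, Jak1 and Jak2 had 149, 176, 119 and 70.4 CPM in that library, each below both IEC+/+ libraries, and the feedback inhibitor gene Socs1 was highest in IEC+/+ replicate 2.

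Between the groups, the axis was not called. By edgeR's quasi-likelihood test 0 of its 18 genes passed, as by the other 3 tests. Before adjustment the quasi-likelihood test had 2 higher and 2 lower, DESeq2 4 higher and 2 lower, edgeR's exact test 9 higher and 0 lower, limma-voom 0 higher and 2 lower, and the quasi-likelihood test without TMM scaling 5 higher and 0 lower. Of all 16637 genes tested, 2764, 2841, 2382, 2653 and 2930 had an unadjusted p under 0.05 by these fits, in the same order. The axis median log2 fold change was 1.31, but -0.24 without IEC-/- replicate 2. Without IEC-/- replicate 1 it was 1.94, in a fit that keeps only replicate 2 of IEC-/-, where most of these genes were highest. The smallest p-values were those of Ifngr1 (log2 fold change -0.33), the MHC class I transactivator gene Nlrc5 (2.98), Jak2 (-0.37) and the immunoproteasome gene Psmb9 (1.52), with adjusted p from 0.254 to 0.295. Nlrc5 had 5.71 and 7.19 CPM for IEC+/+, then 7.80 and 93.9 CPM for IEC-/-, with the highest level again in that library.

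Markers of other immune cells also differed between the IEC-/- libraries. Summed over 13 cytotoxic and natural killer cell genes, the levels were 6.79 and 7.61 CPM for IEC+/+, then 8.34 and 22.7 CPM for IEC-/-, with 5 of 6 tested higher in mean in IEC-/- and Prf1, Ncr1, Klrb1c, Nkg7 and Tbx21 at 0 in at least 1 library. The sums of 9 B and plasma cell genes were 1148 and 1262 CPM against 797 and 3193 CPM, with 5 of 9 higher in mean. Those of 8 neutrophil genes were 120 and 201 against 98.5 and 354 CPM, with 5 of 6 tested higher in mean, Mpo and Camp at 0 in some libraries, and Ly6g called lower (log2 fold change -2.23, edgeR adjusted p = 0.0322). By contrast the macrophage sum was highest in the other IEC-/- library. It was 999 and 945 CPM for IEC+/+, then 1510 and 1135 CPM for IEC-/-, with 9 of 13 higher in mean. Of these 13, the quasi-likelihood test called 0 (before adjustment 5 higher), limma-voom and edgeR's exact test 0, and DESeq2 2 higher. Of the 6 cytotoxic genes tested, DESeq2 and the exact test each called 1 higher, and the quasi-likelihood test and limma-voom 0. The T cell sum was 137 and 136 CPM in the IEC-/- libraries. The part of these cells in the levels of Cd274 and Ido1 was not tested.

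**Figure D4:**
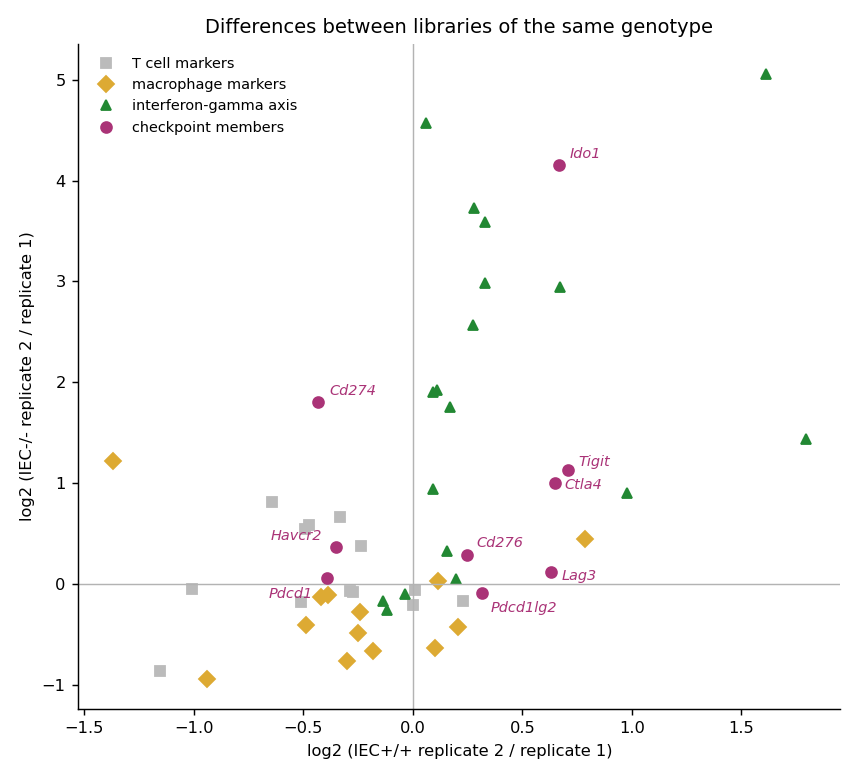
Log2 ratio of replicate 2 to replicate 1 within IEC+/+ (horizontal) and within IEC-/- (vertical) for the checkpoint genes (purple), interferon-gamma axis genes (green), T cell markers (grey) and macrophage markers (yellow) that were tested and had counts in every library. Ido1 and Cd274 lie high on the vertical axis with most of the interferon-gamma axis, while Lag3, Pdcd1 and Pdcd1lg2 lie near 0 on it.

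The genes with the most similar pattern over the 4 libraries were named from the other gene lists, by distance between log2 levels after each gene's own mean was removed. For Ido1 these were Mzb1 and Jchain (distances 0.220 and 0.274), both plasma cell genes. Of 15141 genes, 1 and 2 were at least as near, a count that here and below includes the named gene itself. For Cd274 the nearest was Cd79b, a B cell receptor gene (0.254, with 8 genes as near). Ctla4 was nearest to the B cell gene Ms4a1 and to Wars, Tigit to Wars and Emcn, and Havcr2 to the T cell genes Cd3d and Cd2. Cd276 was nearest to Fscn1 and Id3, Pdcd1lg2 to Kyat1 and Cd247, Pdcd1 to Dcn and Ikzf4, and Lag3 to Cdh5 and Fscn1. For these 7 genes between 15 and 299 genes were as near. With 4 libraries such likeness is a description only.

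Among the binding partners of the checkpoint proteins, 1 of 14 genes fell and 0 rose in IEC-/- by the quasi-likelihood test and by limma-voom, and 2 fell by DESeq2 and by edgeR's exact test, while the median log2 fold change was 0.05. Ceacam1, a TIM-3 ligand and an adhesion molecule of the epithelium, fell from 1718 and 1594 CPM to 485 and 521 CPM (log2 fold change -1.72, SE 0.12, edgeR adjusted p = 0.0322), and as a gene with close paralogs it is uncertain. Krt20 and Lgals4, markers of the epithelium, also fell, and 11 of 11 epithelial genes tested had lower means (median -0.76, summed levels 12740 and 10959 CPM against 7158 and 6749 CPM). Whether the lower Ceacam1 level reflects these epithelial levels was not tested. Lgals3, a galectin gene whose product binds LAG-3, had 829 and 536 CPM against 267 and 249 CPM and did not pass by the quasi-likelihood test (log2 fold change -1.40, edgeR adjusted p = 0.0658) or limma-voom (adjusted p = 0.0705). It was a second gene called lower by DESeq2 (adjusted p = 2.92e-07) and edgeR's exact test (adjusted p = 7.46e-05). The quasi-likelihood test without a filter on low counts also called Lgals3 lower (adjusted p = 0.0304). The log2 fold change of Ceacam1 was -1.67 without IEC+/+ replicate 1 and -1.77 without IEC+/+ replicate 2. With 1 IEC+/+ library left, these fits cannot decide which partners pass.

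The other partners did not pass. Lgals9 and Hmgb1, further TIM-3 ligands, had log2 fold changes of 0.30 and 0.06, at 144 to 199 and 364 to 393 CPM. The CTLA-4 ligands Cd80 and Cd86 had 0.00 and 0.04, at 3.38 to 5.95 and 6.43 to 8.92 CPM, and the activating receptor Cd28 had 0.13. The TIGIT ligands Pvr, Nectin2 and Nectin3 had -0.04, 0.15 and -0.49. Cd226, the activating receptor that shares ligands with TIGIT, had 0.695 and 0.454 CPM for IEC+/+, then 1.30 and 1.56 CPM for IEC-/- (1.31, adjusted p = 0.307), and Cd96, of the same receptor group, 1.18. Rgmb, a PD-L2 partner, had 0.17. Fgl1, a LAG-3 ligand, had at most 0.839 CPM.

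Further inhibitory molecules and costimulatory genes did not pass by edgeR. Of 18 other checkpoint genes tested, 12 had higher means in IEC-/- and 0 were called (before adjustment 2 higher and 1 lower). DESeq2 called 1 higher and 1 lower, edgeR's exact test 1 lower, and limma-voom 0. Nt5e, the ectoenzyme CD73 that makes adenosine, had 238 and 221 CPM for IEC+/+, then 84.3 and 34.3 CPM for IEC-/- (log2 fold change -1.95, SE 0.41, adjusted p = 0.11). Lair1, an inhibitory collagen receptor of leukocytes, had 5.48 and 5.90 against 10.6 and 11.9 CPM (0.98, adjusted p = 0.147). Sirpa, the myeloid receptor for CD47, and Vsir, which encodes VISTA, had 0.50 and 0.25. Pan-leukocyte genes had higher means for 7 of 8, with sums of 259 and 249 CPM for IEC+/+, then 324 and 356 CPM for IEC-/-, of which 0 passed by edgeR (5 before adjustment) or limma-voom, 2 by DESeq2 and 1 by edgeR's exact test. Their part in the leukocyte receptors was not tested.

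Of 14 costimulatory genes tested, 0 passed by edgeR, also before adjustment, and 0 by the other 3 tests. The smallest p after Cd226 were those of Tnfrsf9, Tnfrsf4 and Tnfsf18, with log2 fold changes of -0.43, 0.45 and 0.51. Of 13 regulators of T cell exhaustion, the dampened state of chronically stimulated T cells, edgeR called 0 (before adjustment 2 higher and 2 lower), DESeq2 1 higher and 1 lower, edgeR's exact test 1 lower, and limma-voom 0. Tcf7 and Tox had 0.48 and 0.56, and Nfatc2 and Nr4a3 had -0.99 and -1.58. Epithelial cells also express some of these factors. Of 7 regulatory T cell genes tested 0 were called by edgeR or the other 3 tests (before adjustment 1 lower by each). Means were lower in IEC-/- for 5 of them and higher for 2, with a median log2 fold change of -0.31. Summed over the list of 8, the levels were 73.5 and 65.7 CPM for IEC+/+, then 58.3 and 63.2 CPM for IEC-/-. Foxp3 was among the higher, at 12.9 and 14.6 CPM against 15.4 and 18.0 CPM.

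Other genes of tryptophan and kynurenine metabolism did not pass either. Of 17 genes 13 were tested, 0 were called by edgeR (before adjustment 2 higher) or the other 3 tests, and the median log2 fold change was 0.08. Tdo2, the other main tryptophan dioxygenase gene, had 0.232 and 0.265 CPM for IEC+/+, then 0.791 and 1.11 CPM for IEC-/- (1.91, SE 0.61, adjusted p = 0.222). Ahr, the receptor that kynurenine can activate, had 65.9 and 55.4 against 74.8 and 78.7 CPM (0.34, adjusted p = 0.295), while its targets Ahrr and Tiparp had -1.87 and -0.35. Ido2 was counted at 0.386 CPM or less in every library.

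Genes that act on PD-L1 protein were mostly lower in mean. Of 15 tested, 12 had lower means in IEC-/- (median log2 fold change -0.21), 1 fell and 0 rose. That gene was B3gnt3, a glycosyltransferase reported to modify PD-L1 (log2 fold change -1.48, SE 0.12, edgeR adjusted p = 0.0322). With either IEC+/+ library left out, 1 remains, and such a fit cannot decide whether B3gnt3 passes. Its levels were 209 and 204 CPM for IEC+/+, then 75.7 and 72.9 CPM for IEC-/-. Beside this, 11 of 11 epithelial markers had lower means (median -0.76, 9 with a p under 0.05 before adjustment), and their part in the levels of these genes was not tested. Btrc, the ubiquitin ligase adaptor that recognises GSK3-phosphorylated proteins, had 18.3 and 17.5 against 24.8 and 26.4 CPM (0.52, adjusted p = 0.226). Usp22, a deubiquitinase gene, and Zdhhc3, a palmitoyltransferase gene, had 0.35 and -0.34. Cmtm6, which protects PD-L1 at the cell surface, had 239 and 188 against 183 and 171 CPM (-0.27, adjusted p = 0.455).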

How the data were processed

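RNA was extracted with TRIzol, made into NEBNext Ultra libraries and sequenced in pairs on an Illumina NovaSeq, per the labels' protocols. TopHat, edgeR, limma and mm10 are named in the submitters' processing notes, without versions or roles, while for the counter, annotation and strand setting the entry is: not given in the sources used here. Each file deposited by the authors holds unnormalized read counts, 1 per gene symbol. Groups and replicate numbers came from the sample titles.

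The contrast was fitted on all genes with edgeR 4.0.16 (R 4.3.3): TMM scaling, the default expression filter, a quasi-likelihood F-test of 2 against 2 libraries and Benjamini-Hochberg adjustment over 16637 genes, with calls at an adjusted p under 0.05. Standard errors came from the F statistic. DESeq2 1.42.0, limma-voom (limma 3.58.1) and the exact test were alternatives. RPKM used union exon lengths of GENCODE on GRCm38, the assembly also called mm10. The nearest genes were sought at a mean of at least 1 CPM, on log2(CPM + 0.5). Libraries were not copies: between libraries of a group the chi-square divided by its degrees of freedom was 35.1 (IEC+/+) and 69.5 (IEC-/-). On simulated counts of 16637 genes with the spread of these libraries, the test found 30.8% of changes of log2 size 1 and 78.4% of size 2. It called 0.157% of unchanged genes. Over 5 runs these were 129 calls, beside 77, 196, 216 and 243 changed genes called at log2 sizes 1, 2, 3 and 4. False calls thus made up more of all simulated calls than the 0.05 aimed at.

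The members, gene lists and tests were chosen with earlier results of these data known. Named genes were the members, Gsk3b, 4 defining markers, all binding partners, up to 4 genes of smallest p in each pathway list and the 2 nearest list genes of each member; Cxcl9, Gbp2, Ifng, Ifngr2, Jak1, Socs1, Ly6g, Cd247, Cmtm6, Foxp3, Ido2, Krt20, Lgals4 and the genes listed at 0 were named after their values were seen, as was the core motif. Of the nearest genes, 1 is not reported here. The listed Wars1 was matched through its RefSeq synonym Wars.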

Additional observations from a re-analysis of the deposited data

How the results depend on the processing

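The number of members called was 0 with all libraries under every scaling, filter and test tried, and 2 without IEC-/- replicate 1 (Cd274 and Ido1, adjusted p = 0.0317 and 0.0294 by edgeR). With a library left out it ranged from 0 to 2. The members' median log2 fold change (0.48) ranged from -0.25 without IEC-/- replicate 2 to 0.62 without IEC+/+ replicate 2. With a library left out the log2 fold change of Cd274 ranged from -0.25 to 1.54, of Ido1 from -1.92 to 2.22, of Havcr2 from -0.011 to 0.37, of Ctla4 from -0.88 to 0.11 and of Tigit from -0.86 to 0.26. The sign turned without IEC-/- replicate 2 for the first 3, and without IEC+/+ replicate 2 (0.07 and 0.21) or IEC-/- replicate 1 for Ctla4 and Tigit. Cd276, Lag3, Pdcd1lg2 and Pdcd1 kept their sign under every alternative in which they were tested. The interferon-gamma axis median (1.31) ranged from -0.24 to 1.94 with a library left out, and the log2 difference of PD-1 ligands per leukocyte marker (0.25) from -0.51 to 1.01. That of receptors per T cell marker (-0.44) ranged from -0.67 to -0.21 with a library left out and was -0.48 to -0.69 with other genes. The cause of these changes beyond the fewer samples was not tested.

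All genes called numbered 147, against 83 without TMM scaling (which moved the median of all genes from 0.01 to 0.12 and turned no member's sign), 1293 by DESeq2, 869 by the exact test, 78 by limma-voom, 376 without a filter, and 0 to 729 with a library left out (0 without either IEC+/+ library, where 1384 and 1754 genes had an unadjusted p under 0.05, 729 without IEC-/- replicate 1 and 567 without IEC-/- replicate 2). With the replicate number as a block 211 genes and 0 members were called (1 at an unadjusted p under 0.05), the members' median was 0.35, Ido1 had 0.35 and Lgals3 was also called (adjusted p = 0.0495). Whether same-numbered libraries belong together is not given in the sources used here. Their deviations from the group means correlated at 0.160 over genes, which cannot decide it. At at least 50 counts per library of a group, Pdcd1lg2 and Tigit were not tested. Tigit and Pdcd1lg2 were counted at 14 to 45, and Lag3, Pdcd1 and Ido1 went as low as 45, 62 and 32 counts in a library.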
